A study of Caenorhabditis elegans with 6 samples.

Results

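The cathepsin and aspartyl protease genes of *C. elegans* were examined in whole L4 worms with and without ALH-4, an aldehyde dehydrogenase that converts fatty aldehydes into fatty acids. Genes were taken by name: every row of the expression table whose gene name starts with *cpr-*, *cpl-*, *cpz-* or *asp-* and a number. The rule found 28 of 28641 genes. Of these, 9 belong to the cysteine class (6 *cpr*, 1 *cpl* and 2 *cpz* genes) and 19 are *asp* genes of the aspartyl class.

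RNA was sequenced from 3 biological replicates of *alh-4(-)* worms and 3 of wild type (WT) worms, and each replicate was a pool of synchronized animals. The *alh-4(-)* worms are Bristol N2 carrying *hj221*, a deletion in *alh-4* made by genome editing, and the WT worms are Bristol N2 itself. Worms of both genotypes were fed *E. coli* OP50, kept at 20 °C, collected at the L4 stage without further treatment and lysed whole. A single deletion allele stands for the loss of ALH-4, and whole animals mix all tissues, so that fewer cells of a type and less RNA per cell cannot be told apart.

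Cathepsins are proteases of the lysosome and of related acidic compartments. They are made as inactive precursors and are activated by removal of a propeptide at low pH. Cysteine cathepsins, which resemble mammalian cathepsins B (*cpr* genes), L (*cpl-1*) and Z (*cpz* genes), cut with a catalytic cysteine, while the *asp* proteases resemble cathepsin D and pepsin and cut with a pair of catalytic aspartates. In the worm these enzymes break down ingested bacteria in the intestine, process yolk, remodel the cuticle at moults and degrade dying cells.

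Values are in FPKM, which scales the fragments counted on a gene to its exon length and to the mapped fragments of the library, and can be compared between genes. FPKM summed to between 3310620 and 3364260 per library, and between 17623 and 22670 genes had a value above 0, with replicate 1 of each genotype listing the fewest. These sums are not read numbers, and the depth of each library is unknown. The deleted gene checked the labels: *alh-4* had 33.7, 24.6 and 35.2 FPKM in *alh-4(-)* replicates 1, 2 and 3, against 352, 291 and 336 FPKM in WT replicates 1, 2 and 3 (log2 fold change -3.36, adjusted p = 0.00301 from limma). Library values below follow this replicate order. Markers of intestine, hypodermis, body wall muscle, pharynx, neurons and germ line were above 0 in every library. The 5 markers of the moult, *mlt-10*, *mlt-11*, *noah-1*, *nas-37* and *bli-1*, were also above 0 in every library, but their summed FPKM was 193, 2445 and 4121 in *alh-4(-)* worms, against 5344, 4288 and 4066 in WT worms, with *alh-4(-)* replicate 1 far below the other libraries. This sum is mostly *mlt-10*. For the 4 other markers *alh-4(-)* replicate 1 was the lowest library and WT replicate 1 the highest, as for *noah-1*, with 8.69, 32.7 and 35.0 FPKM in *alh-4(-)* worms, against 1326, 37.4 and 236 FPKM in WT worms. Both replicate 1 libraries thus stood apart in moult markers. All 5 had a lower mean log2 value in *alh-4(-)* worms, and all but *mlt-10* passed the thresholds of the study given below.

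Many of these protease genes were strongly expressed. Together the 28 genes took between 1.97% and 2.20% of all FPKM in *alh-4(-)* libraries and between 1.71% and 2.73% in WT libraries. Of the 28 genes, 14 had a mean of at least 500 FPKM over the 6 libraries, 6 had means between 1 and 500 FPKM, and 8 had means below 1 FPKM. The levels of 7 genes, *cpr-5*, *asp-5*, *cpr-6*, *cpz-2*, *asp-1*, *asp-4* and *asp-3*, ranked between 25 and 99 among all genes by mean FPKM. The tested members spanned 706-fold in mean FPKM, with *cpr-5* at the top and *asp-12* at the bottom. Their order was loose over the pooled libraries. In 15 of the 19 pairs of neighbours in this order the ranges of the 6 libraries overlapped. Compared library by library, the overlapping pairs varied. *asp-17* was above *asp-12* in all 6 libraries, while *cpr-1* was above *asp-2*, and *cpr-3* above *asp-17*, in 2 each. The pairs whose ranges did not overlap were *asp-5* above *cpr-6*, *asp-2* above *asp-10*, *asp-10* above *asp-13* and *asp-8* above *cpr-3*.

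**Figure D1:**
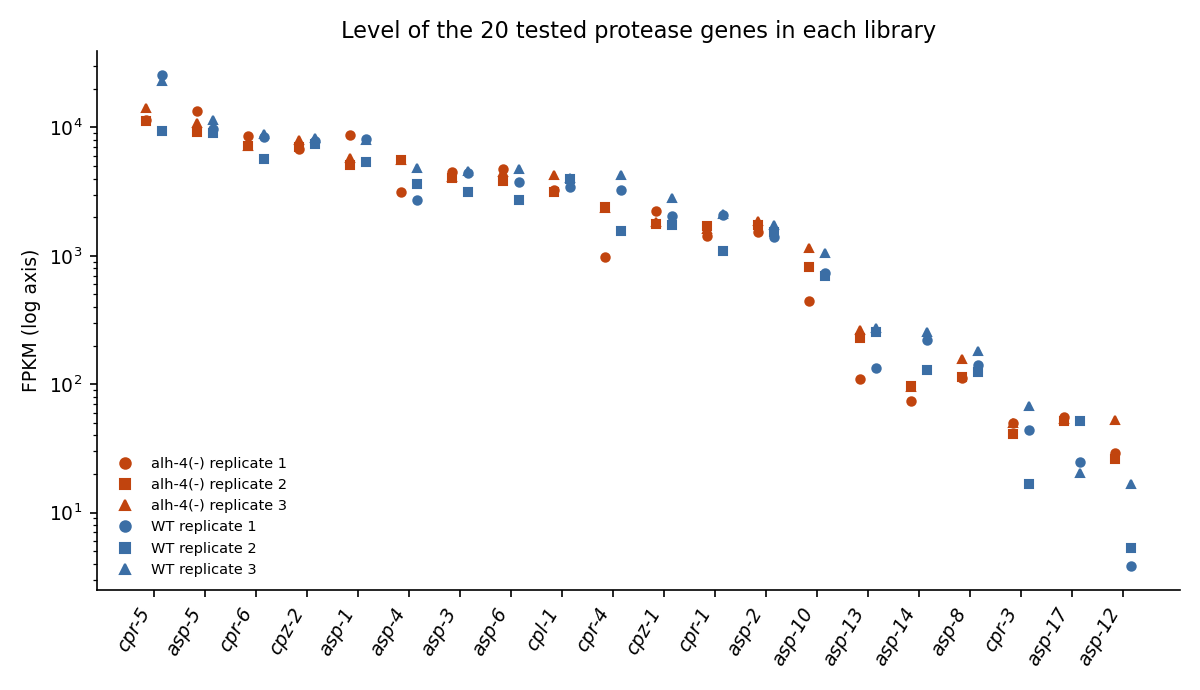
FPKM on a log axis for each of the 20 tested protease genes, ordered by mean level, with *alh-4(-)* libraries in red left of WT libraries in blue and a symbol for each replicate number. Only *asp-12* and *asp-14* show no overlap between genotypes, and the 3 WT points are spread most widely for *asp-12* and *cpr-3*, followed by *cpr-5* and *cpr-4*.

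The genotypes were compared with limma on log2(FPKM + 1), with fold changes given as *alh-4(-)* minus WT and p-values adjusted by the Benjamini-Hochberg method over the 16225 genes that averaged 1 FPKM or more. This filter kept 20 of the 28 protease genes. By adjusted p under 0.05, 0 of the 20 genes differed, against 0.142% of all tested genes (limma), and the lowest adjusted p among the 20 was 0.495. At an unadjusted p under 0.05, 2 of the 20 differed in limma, against 4.97% of all tested genes. Both also passed the thresholds used in the study, a change of more than 2-fold with p under 0.05, which 2.92% of all tested genes did. These thresholds were applied here to the unadjusted limma p, while the study took its p from a negative binomial test. Of the 2 genes, 1 was higher in *alh-4(-)* worms (1.54% of all tested genes) and 1 was lower (1.37%). The same 2 genes, *asp-12* and *asp-14*, were the only members whose libraries did not overlap between genotypes, against 9.21% of all tested genes (5.97% higher and 3.25% lower in *alh-4(-)* worms). For overlap, 2 of 20 genes is near the background, and the counts give no result about the proteases as a group. The median log2 fold change was -0.10 over the 20 genes, -0.11 over the 8 cysteine cathepsin genes and 0.10 over the 12 aspartyl protease genes, while that of all tested genes was 0.07. The sign of the median over the 20 genes was not stable: it was 0.028 with array quality weights, 0.0087 without WT replicate 1 and 0.067 without WT replicate 3. A positive fold change was found for 9 of the 20 genes and a negative one for 11, against 9403 and 6822 of the 16225 tested genes.

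**Figure D2:**
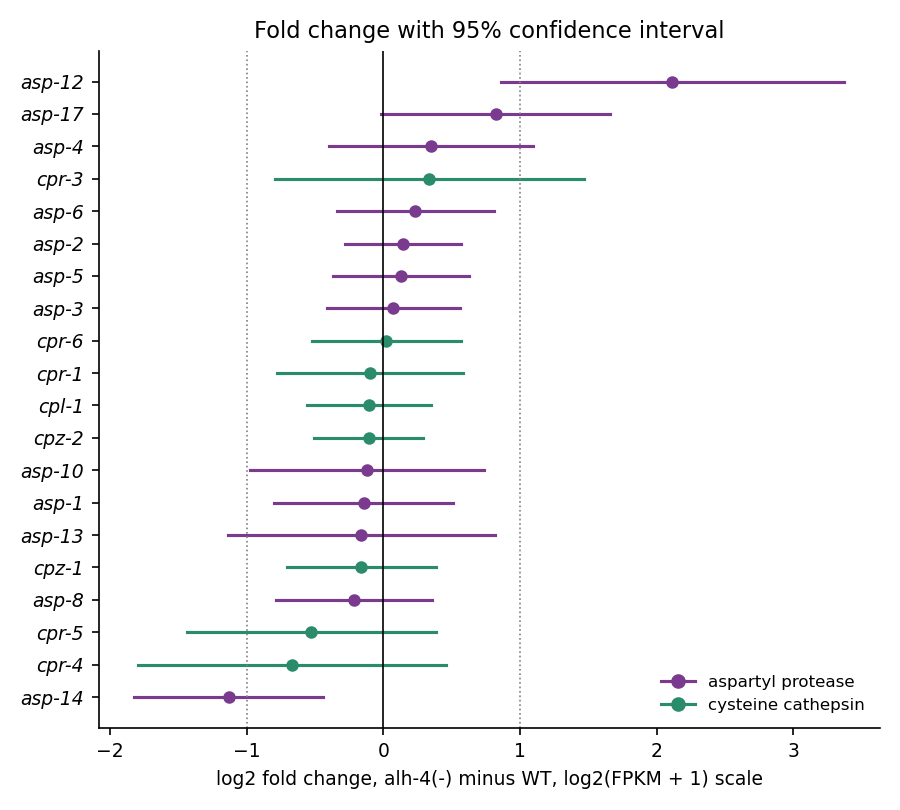
Log2 fold change (*alh-4(-)* minus WT, on the log2(FPKM + 1) scale) of the 20 tested genes with its 95% confidence interval from limma, aspartyl proteases in purple and cysteine cathepsins in green, dotted lines marking a fold change of 2. Only the intervals of *asp-12* and *asp-14* leave out 0, and 12 of the 20 intervals lie between the dotted lines.

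The gene with the largest difference was *asp-12*, an aspartyl protease gene. Its FPKM was 29.0, 26.3 and 52.7 in *alh-4(-)* worms, against 3.85, 5.28 and 16.7 in WT worms. No WT library reached the level of the lowest *alh-4(-)* library, and replicate 3 was the highest library of each genotype. The means were 36.0 ± 14.5 FPKM in *alh-4(-)* worms and 8.61 ± 7.04 FPKM in WT worms (SD, n = 3 each). The log2 fold change was 2.12 (standard error 0.53, 95% confidence interval 0.86 to 3.37, unadjusted p = 0.0052 and adjusted p = 0.495 from limma). A two-sided exact permutation test of the FPKM gave p = 0.1, the smallest p that 3 libraries against 3 allow. The difference thus passed the thresholds of the study but not the adjustment over all genes. Without *alh-4(-)* replicate 1, the library lowest in moult markers, the log2 fold change was 2.23, without WT replicate 1, the highest in most of them, it was 1.74, and without both it was 1.86. The part of the moulting stage in the *asp-12* values was not tested.

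On the chromosome, *asp-12* has other aspartyl protease genes on both sides. In the RefSeq annotation of the WBcel235 assembly, a later build than the one the authors mapped to, *asp-6*, *asp-12*, *asp-5* and *asp-11* follow each other on chromosome V with no other protein-coding gene or pseudogene between them, and *asp-11* is a pseudogene. The neighbours *asp-6* and *asp-5* were far more strongly expressed than *asp-12*. The gene *asp-6* had 4736, 3804 and 4466 FPKM in *alh-4(-)* worms, against 3772, 2747 and 4788 FPKM in WT worms, and the genotypes overlapped (log2 fold change 0.23, 95% confidence interval -0.34 to 0.81). For *asp-5*, the second most abundant member, the values were 13337, 9221 and 10788 FPKM in *alh-4(-)* worms and 9754, 9032 and 11510 FPKM in WT worms (log2 fold change 0.13, 95% confidence interval -0.37 to 0.63). The pseudogene *asp-11* was listed at 0, 2.22 and 1.23 FPKM in *alh-4(-)* worms and at 0, 0 and 0.403 FPKM in WT worms.

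Expressed relative to its abundant neighbour, *asp-12* was at 0.217%, 0.285% and 0.488% of the *asp-5* level in *alh-4(-)* worms, against 0.0395%, 0.0585% and 0.145% in WT worms. These ratios did not overlap between genotypes, but they restate the *asp-12* values, since *asp-5* changed little, and are no separate support. How the authors' counting treated reads shared between these relatives is not known, so the level of *asp-12* beside *asp-5* is uncertain.

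The other member past the thresholds of the study was *asp-14*, an aspartyl protease gene on chromosome X that neighbours no other member. Its FPKM was 73.6, 97.4 and 94.3 in *alh-4(-)* worms, against 220.1, 130.1 and 254 in WT worms. All *alh-4(-)* libraries lay below all WT libraries, and WT replicate 2 came closest to them. The means were 88.4 ± 12.98 FPKM in *alh-4(-)* worms and 201 ± 63.9 FPKM in WT worms (SD, n = 3 each). The log2 fold change was -1.13 (standard error 0.29, 95% confidence interval -1.83 to -0.44, unadjusted p = 0.00602 and adjusted p = 0.504 from limma, and p = 0.1 in the two-sided exact permutation test). It was -1.01 without *alh-4(-)* replicate 1 and -1.04 without WT replicate 1, the libraries apart in moult markers, and -0.92 without both. The part of the moulting stage in the *asp-14* values was not tested. Without WT replicate 3 the log2 fold change was -0.94, under 2-fold (unadjusted p = 0.0228 from limma).

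A further aspartyl protease gene, *asp-17*, was singled out after its values were seen. It had 55.3, 51.4 and 53.1 FPKM in *alh-4(-)* worms, against 24.7, 51.6 and 20.5 FPKM in WT worms. The *alh-4(-)* libraries were tightly grouped, and WT replicate 2 sat at their level while the other WT libraries were lower. The log2 fold change was 0.82 (95% confidence interval -0.02 to 1.66, unadjusted p = 0.0539 from limma). Without WT replicate 2, *asp-17* also passed the thresholds of the study.

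**Figure D3:**
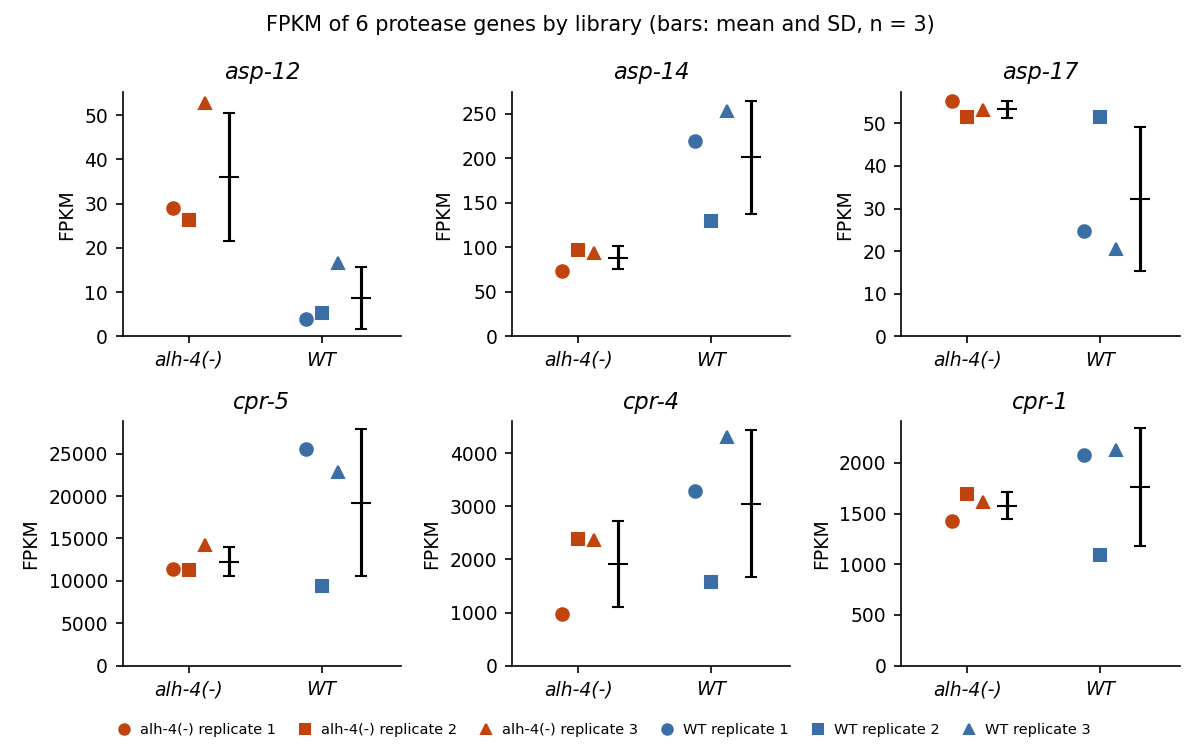
FPKM of *asp-12*, *asp-14*, *asp-17*, *cpr-5*, *cpr-4* and *cpr-1* in each library, *alh-4(-)* left of WT, with the mean and SD of 3 replicates beside the points. The genotypes separate for *asp-12* (26.3 to 52.7 FPKM in *alh-4(-)* worms, 3.85 to 16.7 FPKM in WT worms) and *asp-14*, and WT replicate 2 stands apart from WT replicates 1 and 3 for *asp-17* and the 3 *cpr* genes.

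Among the cysteine cathepsins, *cpr-5* dominated. This cathepsin B-like gene was the most abundant member, at rank 25 of all genes by mean FPKM. It had 11386, 11242 and 14197 FPKM in *alh-4(-)* worms, against 25515, 9338 and 22822 FPKM in WT worms. The *alh-4(-)* libraries were close to each other, whereas WT replicates 1 and 3 were far above and WT replicate 2 was below all of them. The mean was 12275 ± 1666 FPKM in *alh-4(-)* worms and 19225 ± 8668 FPKM in WT worms (SD, n = 3 each). The difference was smaller than the WT spread, with a log2 fold change of -0.53 (95% confidence interval -1.44 to 0.39, unadjusted p = 0.216 from limma). Its size depended on single libraries. The log2 fold change was -0.98 without WT replicate 2 (unadjusted p = 0.00253 and adjusted p = 0.394 from limma), -0.26 without WT replicate 1, -0.34 without WT replicate 3 and -0.21 without both replicate 1 libraries (unadjusted p = 0.664 from limma).

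The cathepsin B-like gene *cpr-4*, whose product is secreted and is known to act on distant cells after ultraviolet irradiation, was uneven in both genotypes. Its values were 977, 2383 and 2372 FPKM in *alh-4(-)* worms, against 3285, 1575 and 4296 FPKM in WT worms. The lowest value was that of *alh-4(-)* replicate 1, the library low in moult markers, and WT replicate 2 lay among the *alh-4(-)* libraries. The log2 fold change of -0.67 (95% confidence interval -1.80 to 0.46) was -1.09 without WT replicate 2, -0.36 without WT replicate 3, -0.24 without *alh-4(-)* replicate 1 and -0.13 without both replicate 1 libraries. The part of the moulting stage in these values was not tested.

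For *cpr-1*, a cysteine protease gene of the intestine, the same WT library was lowest. The gene had 1428, 1696 and 1609.6 FPKM in *alh-4(-)* worms, against 2075, 1087 and 2124 FPKM in WT worms, with a log2 fold change of -0.10 (95% confidence interval -0.78 to 0.58). The gene *cpr-6*, which also encodes a cathepsin B-like enzyme, had 8636, 7223 and 7114 FPKM in *alh-4(-)* worms and 8452, 5663 and 8890 FPKM in WT worms. Its means were nearly equal, at 7658 ± 849 FPKM in *alh-4(-)* worms and 7668 ± 1750.4 FPKM in WT worms (SD, n = 3 each), and its log2 fold change of 0.02 had a 95% confidence interval from -0.52 to 0.56. The remaining *cpr* genes were low. Values of *cpr-3* ran from 40.9 to 50.2 FPKM in *alh-4(-)* worms and from 16.6 to 67.7 FPKM in WT worms, again with WT replicate 2 lowest, and *cpr-2* stayed at or below 0.287 FPKM in every library.

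Some cathepsin B-like relatives carry other names in the expression table and are not members. In the RefSeq table F57F5.1 is *cpr-9*, and it had 359, 396 and 436 FPKM in *alh-4(-)* worms, against 877, 295 and 741 FPKM in WT worms. WT replicate 2 was again the lowest. W07B8.1, listed there as *cpr-8* beside *cpr-5*, ran from 18.3 to 40.5 FPKM in *alh-4(-)* worms and from 22.6 to 36.4 FPKM in WT worms.

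The cathepsin L and cathepsin Z genes overlapped between genotypes. The gene *cpl-1*, the only cathepsin L gene of the set, is needed for yolk processing in embryos and for moulting. It had 3282, 3161 and 4252 FPKM in *alh-4(-)* worms, against 3467, 3936 and 4035 FPKM in WT worms, which overlap (log2 fold change -0.11, 95% confidence interval -0.56 to 0.35). The gene *cpz-1*, a cathepsin Z gene with a role in moulting, had 2224, 1777 and 1822 FPKM in *alh-4(-)* worms and 2036, 1753 and 2836 FPKM in WT worms (log2 fold change -0.16, 95% confidence interval -0.71 to 0.38). The *alh-4(-)* library with the fewest moult marker transcripts, replicate 1, had the highest *cpz-1* level of its genotype. Replicate 1 was the highest *alh-4(-)* library for 8 of the 20 tested members, *cpz-1* among them, and for 20.5% of all tested genes. The part of the moulting stage in these values was not tested. Steadier than *cpl-1* and *cpz-1* was *cpz-2*, the other cathepsin Z gene. It had 6843, 7086 and 7960 FPKM in *alh-4(-)* worms, against 7853, 7459 and 8258 FPKM in WT worms. Its coefficient of variation was 8.05% in *alh-4(-)* worms and 5.08% in WT worms, and the 95% confidence interval of its log2 fold change of -0.11 ran from -0.51 to 0.29.

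The other abundant aspartyl protease genes overlapped between genotypes. The lysosomal aspartyl proteases *asp-3* and *asp-4* are known for their part in the necrotic death of neurons. The gene *asp-3* had 4494, 4019 and 4085 FPKM in *alh-4(-)* worms, against 4428, 3140 and 4557 FPKM in WT worms (log2 fold change 0.07, 95% confidence interval -0.41 to 0.56). For *asp-4* the values were 3131, 5628 and 5608 FPKM in *alh-4(-)* worms and 2731, 3624 and 4854 FPKM in WT worms. Replicate 1 was the lowest library of each genotype, and *alh-4(-)* replicates 2 and 3 were above all WT libraries. The log2 fold change of *asp-4* was 0.35 (95% confidence interval -0.40 to 1.09), and without *alh-4(-)* replicate 1 it was 0.63 (unadjusted p = 0.060 from limma). With array quality weights it was 0.56 (unadjusted p = 0.0378 and adjusted p = 0.324 from limma), the only 1 of 14 alternatives with an unadjusted p under 0.05. With each library left out it ran from 0.14, without WT replicate 1, to 0.63.

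These genes also include *asp-1*, a gene of the intestine. It had 8704, 5086 and 5805 FPKM in *alh-4(-)* worms, against 8183, 5343 and 7923 FPKM in WT worms (log2 fold change -0.14, 95% confidence interval -0.80 to 0.51), and replicate 2 was the lowest library of each genotype. The gene *asp-2* was steadier, at 1546, 1727 and 1883 FPKM in *alh-4(-)* worms and 1404, 1536 and 1729 FPKM in WT worms (log2 fold change 0.14, 95% confidence interval -0.28 to 0.57). The gene *asp-10*, also known as *hrg-7*, encodes an aspartyl protease-like protein that signals heme status between the intestine and neurons. It had 446, 814 and 1146 FPKM in *alh-4(-)* worms, against 731, 696 and 1053 FPKM in WT worms. Its lowest library was *alh-4(-)* replicate 1, and the log2 fold change of -0.12 (95% confidence interval -0.98 to 0.74) was 0.25 without that library. Moderately expressed were *asp-13*, from 109.7 to 264 FPKM in *alh-4(-)* worms and from 134 to 272 FPKM in WT worms, and *asp-8*, from 112 to 157 FPKM in *alh-4(-)* worms and from 123 to 180.4 FPKM in WT worms.

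The 8 members below the filter were *cpr-2* and 7 aspartyl protease genes, *asp-7*, *asp-9*, *asp-11*, *asp-15*, *asp-16*, *asp-18* and *asp-19*. None reached more than 2.22 FPKM in any library. The genes *asp-15* and *asp-19* were listed at 0 in all 6 libraries. For *asp-16* the only value above 0 was 0.281 FPKM in *alh-4(-)* replicate 3, and for *asp-18* it was 0.851 FPKM in WT replicate 1. No comparison was made for these genes.

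Position on the chromosomes was a feature that the naming rule did not use. Of the 28 names, 27 matched a symbol of the RefSeq table, all but *asp-10*. Chromosome V held 21 of the 27 (77.8%), against 25.0% of all protein-coding genes, with 4 on chromosome X and 1 each on I and IV. In 4 runs on chromosome V, 11 aspartyl protease genes directly followed each other: *asp-6*, *asp-12*, *asp-5* and *asp-11*, then *asp-17*, *asp-16* and *asp-15*, then *asp-8* and *asp-7*, and *asp-19* and *asp-18*. Neighbours differed widely in level. The gene *asp-17* was expressed while *asp-16* and *asp-15* were at or near 0, and *asp-1*, separated from *asp-15* by a single gene, had at least 5086 FPKM in every library. In the same way *asp-8* had at least 112 FPKM in every library and *asp-7* at most 0.829 FPKM. In the Ensembl annotation of WBcel235, 17 aspartyl protease genes encode between 223 and 444 residues (median 391) and the 9 cysteine cathepsin genes between 306 and 467 residues (median 337). No sequences were used here.

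**Figure D4:**
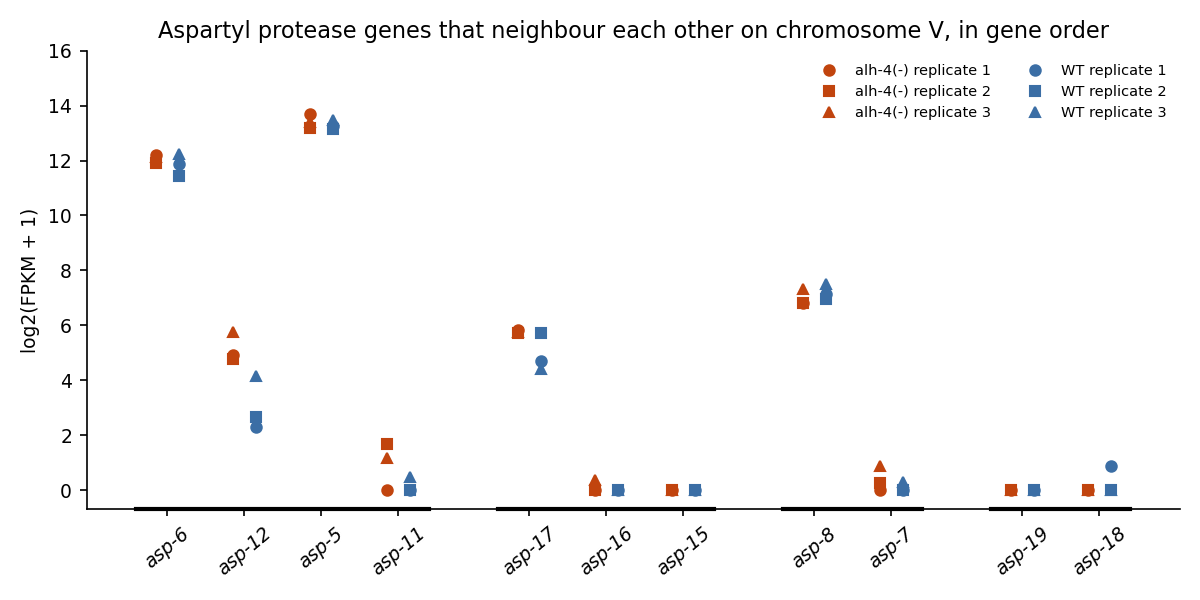
Log2(FPKM + 1) in each library of the 11 aspartyl protease genes that lie in 4 runs on chromosome V, in gene order, each run underlined, with *alh-4(-)* in red left of WT in blue. The genes *asp-5*, *asp-17* and *asp-8* each stand next to a gene at or near 0, and *asp-12* is the gene whose genotypes separate.

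Summed over each class, the genotypes overlapped. The 9 cysteine cathepsin genes summed to 34827, 34609 and 39375 FPKM in *alh-4(-)* worms, against 52726, 30828 and 53329 FPKM in WT worms. WT replicates 1 and 3 were above all *alh-4(-)* libraries and WT replicate 2 was below them. The 19 aspartyl protease genes summed to 36774, 30820 and 34406 FPKM in *alh-4(-)* worms, against 31528, 26685 and 37159 FPKM in WT worms. The gene *cpr-5* made up between 32.5% and 36.1% of the class in *alh-4(-)* libraries and 48.4%, 30.3% and 42.8% in WT libraries. Without it the 8 other cysteine cathepsin genes summed to 23441, 23367 and 25178 FPKM in *alh-4(-)* worms, against 27212, 21490 and 30507 FPKM in WT worms. WT replicates 1 and 3 were still above all *alh-4(-)* libraries and WT replicate 2 still below them.

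**Figure D5:**
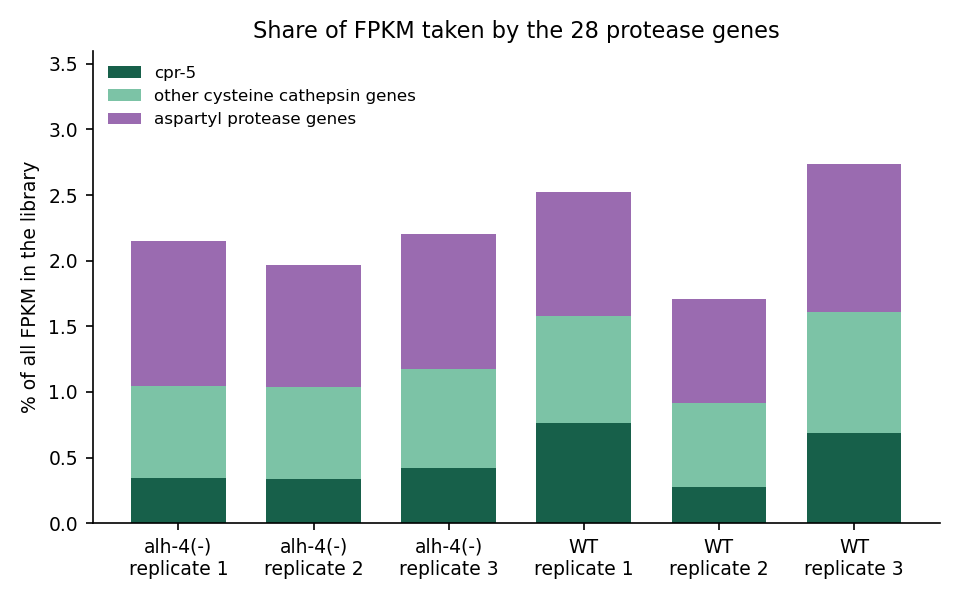
Share of all FPKM in each library (%) taken by *cpr-5*, by the other cysteine cathepsin genes and by the aspartyl protease genes, as stacked bars, *alh-4(-)* libraries left of WT libraries. The total is 1.97% to 2.20% in *alh-4(-)* libraries and 1.71% to 2.73% in WT libraries, with the *cpr-5* part tallest in WT replicates 1 and 3.

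The spread between WT libraries had a common shape. WT replicate 2 was the lowest WT library for 14 of the 20 tested members, and for 33.2% of all tested genes. WT replicate 3 was the highest WT library for 17 of the 20, and for 46.6% of all tested genes. Among the 7 intestine markers, *elt-2*, *elt-7*, *ges-1*, *ifb-2*, *vha-6*, *act-5* and *pept-1*, *alh-4(-)* replicate 1 was the lowest *alh-4(-)* library for 5, and in WT worms replicate 2 was the lowest library for 5 and replicate 3 the highest for 5. Their summed FPKM, most of it *act-5*, was 11658, 8089 and 9245 in *alh-4(-)* worms, against 14323, 9289 and 13250 in WT worms. The part of intestinal RNA in the protease values was not tested. In *alh-4(-)* worms replicate 1 was the lowest library for 9 of the 20 members, and for 67.2% of all tested genes. Replicate 2 was the lowest for 10 members (19.3% of all tested genes) and replicate 3 for 1 (13.5%). For the 14 members with at least 500 FPKM, the median coefficient of variation was 13.1% in *alh-4(-)* worms and 23.3% in WT worms, against 16.7% and 21.3% for the 998 genes at that level.

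Genes that act with the proteases were counted against the same background, the 2.92% of all tested genes that passed the thresholds of the study. By limma, 0.142% of all tested genes had an adjusted p under 0.05 and 4.97% an unadjusted p under 0.05. The genotypes did not overlap for 9.21%. For the sign, the background was 9403 positive and 6822 negative fold changes among the 16225 tested genes. Of 26 lysosomal genes, all tested, 16 had a positive and 10 a negative fold change, with a median log2 fold change of 0.13, and by adjusted p under 0.05 from limma 0 differed, while 2 had an unadjusted p under 0.05. One passed the thresholds of the study, *nuc-1*, which encodes a lysosomal DNase II that digests DNA from dead cells and from food. It had 279, 322 and 284 FPKM in *alh-4(-)* worms, against 755, 457 and 705 FPKM in WT worms, without overlap (log2 fold change -1.08, unadjusted p = 0.00253 and adjusted p = 0.361 from limma). Among the 26 genes, 2 were higher and 3 lower in *alh-4(-)* worms without overlap, *nuc-1* included. The V-ATPase pumps protons into lysosomes. Of its 20 tested subunit genes 4 had a positive and 16 a negative fold change, with a median of -0.19 on the log2 scale and 0 past an unadjusted p of 0.05 in limma.

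Cystatins are protein inhibitors of cysteine cathepsins, and the worm has *cpi-1* and *cpi-2*. The gene *cpi-1* had 169, 114 and 123 FPKM in *alh-4(-)* worms, against 219, 350.3 and 195 FPKM in WT worms, which did not overlap. Its log2 fold change of -0.88 was under the fold threshold (unadjusted p = 0.0175 and adjusted p = 0.761 from limma). The values of *cpi-2* ran from 530.3 to 594 FPKM in *alh-4(-)* worms and from 515 to 708 FPKM in WT worms. The serine carboxypeptidase genes *pcp-1* to *pcp-5* and the 2 cystatin genes gave 0 of 7 past the thresholds of the study, with 1, *cpi-1*, at an unadjusted p under 0.05 in limma. Of all tested genes, 4.97% had such a p and 9.21% did not overlap between genotypes.

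Of 8 tested genes for other papain-like proteases, 4 had a positive and 4 a negative fold change, with a median log2 fold change of -0.05. One passed the thresholds of the study, Y40H7A.10, at 12.9, 24.0 and 23.4 FPKM in *alh-4(-)* worms, against 26.2, 42.9 and 58.6 FPKM in WT worms (log2 fold change -1.02, unadjusted p = 0.0311 and adjusted p = 0.91 from limma). Of 4 regulators of intestinal and lysosomal genes, 0 had an unadjusted p under 0.05 in limma, against 4.97% of all tested genes. The gene *hlh-30*, the worm TFEB, which drives lysosome genes, ran from 9.29 to 15.2 FPKM in *alh-4(-)* worms and from 9.66 to 14.2 FPKM in WT worms. The gut GATA factor gene *elt-2* ran from 59.3 to 102 FPKM in *alh-4(-)* worms and from 78.9 to 116 FPKM in WT worms.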

How the data were processed

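RNA of lysed whole L4 worms, from 3 replicates of each genotype, was made into Smart-seq2 libraries. The authors mapped the reads to ce10 and deposited FPKM values per gene and library without pooling. The submitters' processing notes list bcl2fastq 2.19, Trimmomatic 0.36, HISAT2 2.1.0, SAMtools 1.3, StringTie 1.3.3 and the builds ce10 and mm10, with no role or order. FPKM already corrects for gene length and mapped fragments. Low FPKM values times exon length took no clear whole steps. At the best step tried, 12.9% to 16.1% of values per library lay within 0.05 of a whole number, against 10% by even spread. The exon lengths came from a later annotation than the authors used, which could hide such steps. Depth is therefore unknown, and no count test was run.

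Values were taken as log2(FPKM + 1), and genes averaging 1 FPKM or more were fitted with limma 3.58.1 in R 4.3.3 (eBayes with a mean-variance trend, two-sided), adjusted over all tested genes. A fold change on this scale understates that of low genes. The negative binomial test of the study takes counts and was not run. Single genes were also tested by exact permutation. Tables used Python 3.11.15, pandas 2.3.3, NumPy 2.4.6, SciPy 1.17.1 and Matplotlib 3.10.9. The fit was tested on simulated data in which each value was drawn independently. That setting does not cover deviations that genes or libraries share. The members and lists were chosen with earlier results of these data known.

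Full values were given for members with an unadjusted p under 0.05, without overlap of genotypes or with a mean of at least 500 FPKM, and companion genes were named where they passed the study's thresholds, besides *cpi-1*, *cpi-2*, *hlh-30* and *elt-2*. *asp-17*, F57F5.1, W07B8.1, *cpr-3*, *asp-8*, *asp-13* and the members below the filter were added after their values were seen. Alternatives were a pseudocount of 0.1, no filter, a filter at a mean of 10 FPKM, quantile normalization, replicate number fitted as a block, array quality weights, eBayes with no trend, and fits that left out both replicate 1 libraries or each library in turn. Protein identities and promoter motifs were planned and not run, since no sequences were used here. Gene names were matched to RefSeq and Ensembl annotation of WBcel235, from which no coordinates were taken.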

Additional observations from a re-analysis of the deposited data

How the results depend on the processing

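Among the cathepsin and aspartyl protease genes, 0 had an adjusted p under 0.05 under any of the 14 alternatives (limma), and *asp-12* passed the thresholds of the study under all 14, with log2 fold changes from 1.74 to 2.68. *asp-14* kept an unadjusted p under 0.05 under all 14 and a fold change over 2 under 12 (log2 fold change from -1.42 to -0.92). The number of members past these thresholds was therefore 1 in place of 2 without both replicate 1 libraries, and from 1 to 3 with each library left out. The number of all genes past them, 473, was 894 with array quality weights, 266 at a mean FPKM of at least 10 and 736 without both replicate 1 libraries, and from 361 to 930 with each library left out. The number by adjusted p, 23, was 91 with array quality weights, 6 without a filter, 36 after quantile normalization and 9 without both replicate 1 libraries, and from 6 to 25 with each library left out. The median log2 fold change of the tested members, -0.10, ran from -0.16 to 0.067 over the alternatives. Small fold changes changed sign: with array quality weights those of *asp-10* (0.29), *cpl-1* (0.023) and *cpr-6* (-0.067), after quantile normalization that of *asp-3* (-0.035), and without both replicate 1 libraries those of *asp-10* (0.17), *asp-5* (-0.032) and *cpr-1* (0.12). With each library left out, the log2 fold change ran from -0.37 to 0.017 for *asp-1*, -0.43 to 0.25 for *asp-10*, -0.10 to 0.17 for *asp-3*, -0.010 to 0.26 for *asp-5*, -0.41 to 0.068 for *cpr-1*, -0.18 to 0.14 for *cpr-6* and -0.32 to 0.031 for *cpz-1*. The causes were not tested. Array quality weights moved the median of all tested genes to 0.20 and leaving out *alh-4(-)* replicate 1 moved it to 0.24, from 0.07.

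The labels name no batch for same-numbered libraries. Their deviations from the genotype means correlated by 0.31, 0.28 and 0.0049 for replicates 1, 2 and 3, and 4 of 6 libraries correlated best with their own number. Whether same-numbered libraries shared a batch was not tested. Fitting replicate number as a block, 15 of all genes had an adjusted p under 0.05, and 0 members did. The block left *asp-12* (adjusted p = 0.159) and *asp-14* (adjusted p = 0.402 from limma) past the thresholds of the study. Depth per library is unknown, so values near 0 carry no detection limit.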
